A study of Mus musculus with 2 samples.

Results

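The genes described here make ribosomes: 42 genes for RNA polymerase I, for the small nucleolar ribonucleoproteins (snoRNPs) that modify ribosomal RNA, for nucleolar chaperones and for the factors that cut, fold and assemble the small and large ribosomal subunits. They were chosen as a pathway, by symbol and with no threshold on a measured value, though with earlier results of these data known, and were matched by gene identifier to 42 of the 43346 annotated genes in the tables. Sequencing covered total RNA above 200 bases of megakaryocyte-erythroid progenitors (MEP), which give rise to red cells and platelets, from primary cells of male adult C57BL/6J mice aged 5 to 6 weeks. The 1 group held replicate 1 and replicate 2, each a library of 100 cells, with no treatment, mutation or second cell type. The labels give the libraries separate biosamples but the same donor record, so nothing shows that they came from separate animals and the spread between them may be technical. No second group exists to test against, so no p-value is given, and the comparisons are between genes, between role groups and between replicate 1 and replicate 2.

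Ribosome production begins in the nucleolus, where RNA polymerase I transcribes a long precursor that holds most of the ribosomal RNAs. Box C/D snoRNPs methylate the precursor and box H/ACA snoRNPs convert uridines to pseudouridine, each guided by its small nucleolar RNA (snoRNA). Assembly factors then cleave the precursor and build the small and large subunits along separate routes before export to the cytoplasm. Erythroid progenitors divide fast and later make large amounts of globin protein, and inherited defects of ribosome production, such as Diamond-Blackfan anemia in people, strike red cell formation early.

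Replicate 1 held 30016974 expected counts, 45.0% of them on protein-coding nuclear genes, and replicate 2 held 51510347, with 50.1% there. Genes of MEP and erythroid cells were present: all 6 listed markers reached 10 TPM, the authors' length-corrected share of all transcripts, in both libraries. Megakaryocyte markers were low, with summed levels of 19.6 TPM in replicate 1 against 24.8 TPM in replicate 2 over 6 genes, and only Itga2b of the 6 reached 10 TPM in both. Pf4 had 0 counts in replicate 1 and Gp1bb 0 counts in replicate 2. Each library held genes of another lineage. The 8 granulocyte and monocyte markers summed to 1862 TPM in replicate 1 versus 6.39 TPM in replicate 2, where Ngp, Lcn2, Elane, Mpo and Ctsg, 5 of the 8, had 0 counts. The 7 B cell markers summed to 7.14 TPM in replicate 1, where Vpreb1 had 0 counts, and 126 TPM in replicate 2. The 5 T cell markers summed to 21.2 TPM in replicate 1 against 12.6 TPM in replicate 2, with Cd4 and Cd8a at 0 counts in replicate 1 and Cd8a at 0 counts in replicate 2. The part of these other cells in the differences between replicate 1 and replicate 2 below was not tested.

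MEP expressed every gene of the set. The median member stood at 35.5 TPM in replicate 1 versus 43.0 TPM in replicate 2, and the levels spanned 12.7 to 1367 TPM in replicate 1 and 9.91 to 1616 TPM in replicate 2. TPM is corrected for length, so levels may be compared between genes, but in a bulk library fewer cells of a type and less RNA per cell cannot be told apart. Of the 42 members, 41 reached 10 TPM in both libraries, or 97.6%, where 24.7% of the 21461 protein-coding nuclear genes did so. The exception was Rrp12, at 12.7 TPM in replicate 1 against 9.91 TPM in replicate 2. The members together held 1.01% of the protein-coding TPM in replicate 1 and 1.07% in replicate 2. That sum was uneven: Npm1 alone made up 33.8% of it in replicate 1 and 33.3% in replicate 2, and Npm1, Ncl and Nop56 together 51.2% in replicate 1 and 53.2% in replicate 2. Ranked by mean TPM among protein-coding nuclear genes, the members ran from place 45 (Npm1) to place 5392 (Rrp12), with a median place of 1775. The counts behind these levels were large, with at least 462 expected counts for any member in replicate 1 and 1184 in replicate 2. Error from counting reads was thus small beside these levels. How many RNA molecules of the 100 cells these reads stand for was not examined.

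**Figure D1:**
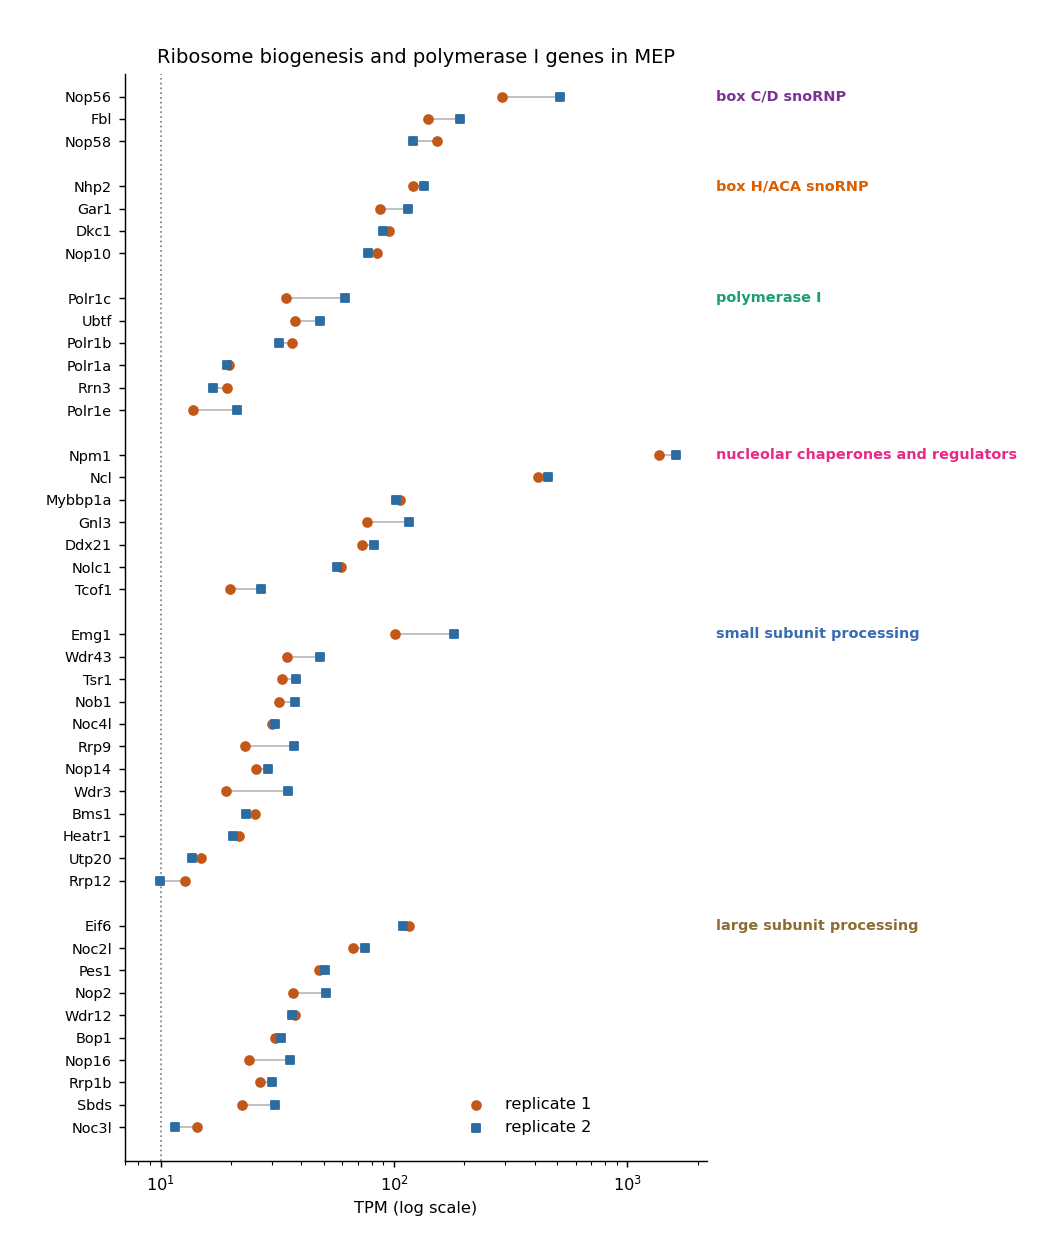
Level of each of the 42 members in TPM on a log axis, by role group, with a circle for replicate 1, a square for replicate 2 and a dotted line at 10 TPM. Npm1 lies furthest right, at 1367 TPM in replicate 1 and 1616 in replicate 2, the snoRNP proteins lie between 77.6 and 512 TPM, and the polymerase I genes lie between 13.7 and 61.5 TPM.

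The role groups differed in level. The box C/D snoRNP core proteins among the members had a median of 153 TPM in replicate 1 versus 191 TPM in replicate 2 over 3 genes. Snu13, which binds C/D guide RNAs, is not a member and is left out of that median. The core proteins of box H/ACA snoRNPs had a median of 91.4 TPM in replicate 1 against 102 TPM in replicate 2 over 4 genes. Nucleolar chaperones and regulators had medians of 76.5 TPM in replicate 1 against 102 TPM in replicate 2 over 7 genes. The other groups were lower: large subunit processing at 33.9 TPM in replicate 1 against 36.0 TPM in replicate 2 over 10 genes, small subunit processing at 25.5 TPM in replicate 1 against 32.9 TPM in replicate 2 over 12, and polymerase I at 26.95 TPM in replicate 1 against 26.7 TPM in replicate 2 over 6. The groups kept this order in both libraries except that polymerase I lay above small subunit processing in replicate 1 and below it in replicate 2. For scale, the 83 cytosolic ribosomal protein genes, the building blocks that these factors assemble, had medians of 1332 TPM in replicate 1 versus 1543 TPM in replicate 2. The 76 mitochondrial ribosomal protein genes stood at 33.0 TPM in replicate 1 against 42.4 TPM in replicate 2, near the level of the assembly factors.

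The box C/D core proteins among the members were the highest group by median. Nop56, a scaffold that holds the guide RNA, was at 291 TPM in replicate 1 against 512 TPM in replicate 2, and its partner scaffold Nop58 was at 153 TPM in replicate 1 against 120 TPM in replicate 2. Fbl, fibrillarin, the enzyme that transfers the methyl group, was at 140 TPM in replicate 1 versus 191 TPM in replicate 2. The ratio of Nop56 to Nop58, proteins that sit in the same particle, was 1.90 in replicate 1 and 4.27 in replicate 2, and this shift was smaller without length correction, at 1.80 in replicate 1 and 2.93 in replicate 2 by CPM (counts scaled to library size). In protein-coding transcripts alone the ratio was 1.25 in replicate 1 and 2.82 in replicate 2. Fbl also had the largest deposited posterior standard deviation of its count, relative to the square root of the count. It was 0.329 of that root in replicate 1 and 0.236 in replicate 2, against at most 0.0389 for any other member. The measure was 0 for most members, so it leaves out the sampling of reads. In 6 members, Fbl among them, the expected count was not a whole number, as happens when a read could be placed on more than 1 gene.

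The 4 box H/ACA proteins lay close together by gene TPM, but not by the TPM of their protein-coding transcripts. Nhp2, which binds the guide RNA, was at 121 TPM in replicate 1 against 134 TPM in replicate 2. Dkc1, dyskerin, the pseudouridine synthase, was at 95.4 TPM in replicate 1 against 89.8 TPM in replicate 2, and Nop10, which binds it, at 84.7 TPM in replicate 1 against 77.6 TPM in replicate 2. Gar1, which helps the product leave, was at 87.3 TPM in replicate 1 versus 114 TPM in replicate 2. By gene TPM, Nhp2 stood at 1.43 times Nop10, the lowest of the 4, in replicate 1 and at 1.73 times in replicate 2. Most of the TPM of Gar1 was assigned to a short non-coding transcript, and its coding transcripts were at 11.0 TPM in replicate 1 against 7.65 TPM in replicate 2. By coding TPM, Nhp2 stood at 7.66 times Gar1 in replicate 1 and at 13.3 times in replicate 2.

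The chaperones and regulators held the pair of highest members. Npm1, nucleophosmin (ENSMUSG00000057113.9, GRCm38 chromosome 11, 33152287 to 33163206, minus strand), a histone and ribosome chaperone, was at 1367 TPM in replicate 1 against 1616 TPM in replicate 2. Ncl, nucleolin (ENSMUSG00000026234.8, chromosome 1, 86344719 to 86359400, minus strand), which binds nascent ribosomal RNA, was at 414 TPM in replicate 1 against 456 TPM in replicate 2. Npm1 thus stood at 3.30 times Ncl in replicate 1 and 3.54 times in replicate 2, and this ratio depended on the measure. It was 1.201 in replicate 1 and 1.409 in replicate 2 by CPM, and 21.4 in replicate 1 and 28.5 in replicate 2 by coding TPM. Mybbp1a, a nucleolar protein first found as a Myb partner, was at 106 TPM in replicate 1 against 102 TPM in replicate 2. Gnl3, nucleostemin, a nucleolar GTPase of proliferating cells, was at 76.5 TPM in replicate 1 versus 116 TPM in replicate 2, and the RNA helicase Ddx21 at 72.8 TPM in replicate 1 against 82.3 TPM in replicate 2. In this group the libraries were closest by gene TPM for Mybbp1a and Nolc1. Nolc1, a chaperone that binds snoRNPs, was at 59.1 TPM in replicate 1 against 57.0 TPM in replicate 2. By CPM the libraries were closest for Ddx21, at 263.4 CPM in replicate 1 against 263.1 CPM in replicate 2. On that measure Mybbp1a and Nolc1 were further apart than the rest of the group except Gnl3. Tcof1, treacle, which recruits polymerase I factors and is mutated in Treacher Collins syndrome in people, was the lowest of the group at 19.9 TPM in replicate 1 against 26.7 TPM in replicate 2.

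The polymerase I genes were low among the members and of unequal stability between the libraries. Their median was above that of protein-coding nuclear genes with a mean of at least 1 TPM. That median was 11.8 TPM in replicate 1 against 13.6 TPM in replicate 2. Polr1a, the largest catalytic subunit, was at 19.7 TPM in replicate 1 versus 19.2 TPM in replicate 2, and Polr1b, the second catalytic subunit, at 36.4 TPM in replicate 1 against 32.1 TPM in replicate 2. Polr1c, which polymerases I and III share, was at 34.2 TPM in replicate 1 against 61.5 TPM in replicate 2. Polr1e, a peripheral subunit, was at 13.7 TPM in replicate 1 against 21.3 TPM in replicate 2. By gene TPM, replicate 1 was thus lower for these 2 smaller subunits and not for the catalytic pair. By other measures Polr1b was lower in replicate 1 too. It was at 72.3 CPM in replicate 1 against 76.3 CPM in replicate 2. Its coding transcripts were at 22.3 TPM in replicate 1 against 28.1 TPM in replicate 2. Polr1a was at 92.2 CPM in replicate 1 against 79.7 CPM in replicate 2. Of the initiation factors, Ubtf, which coats the ribosomal DNA, was at 37.5 TPM in replicate 1 versus 48.0 TPM in replicate 2. Rrn3, which links the polymerase to growth signals, was at 19.3 TPM in replicate 1 against 16.7 TPM in replicate 2.

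The small subunit factors ran from Emg1 down to Rrp12, a factor needed in yeast for subunit export, whose values are given above. Emg1, a methyltransferase of the small subunit RNA, was at 101 TPM in replicate 1 against 181 TPM in replicate 2, far above the rest of its group. Wdr43 was at 34.6 TPM in replicate 1 against 48.3 TPM in replicate 2 and Wdr3 at 18.9 TPM in replicate 1 against 35.0 TPM in replicate 2, and both belong to the early processome that folds the precursor. By gene TPM, other processome proteins were steadier. Nop14 was at 25.6 TPM in replicate 1 versus 28.7 TPM in replicate 2, its partner Noc4l at 30.0 TPM in replicate 1 against 30.7 TPM in replicate 2, Heatr1 at 21.7 TPM in replicate 1 against 20.3 TPM in replicate 2, and Utp20 at 14.8 TPM in replicate 1 against 13.6 TPM in replicate 2. The ratio of Noc4l to Nop14 was 1.17 in replicate 1 and 1.07 in replicate 2 by gene TPM. By CPM it was 0.82 in replicate 1 and 0.73 in replicate 2. As log2(CPM + 1) of replicate 1 minus replicate 2, Wdr3 differed by 0.05 and Wdr43 by -0.30. On that scale Nop14 differed by 0.02, Noc4l by 0.19, Heatr1 by 0.27 and Utp20 by 0.30. Of these only Nop14 was thus steadier than Wdr3 by CPM. Rrp9, which binds the snoRNA of the processome, was at 22.9 TPM in replicate 1 against 37.2 TPM in replicate 2. The GTPase Bms1 was at 25.4 TPM in replicate 1 against 23.3 TPM in replicate 2, and Tsr1, a late factor that resembles it, at 33.0 TPM in replicate 1 against 38.0 TPM in replicate 2. Nob1, the nuclease that makes the last cut of the small subunit RNA, was at 32.2 TPM in replicate 1 against 37.6 TPM in replicate 2.

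In the large subunit route, Pes1, Bop1 and Wdr12 form a trimer needed to process the large subunit RNAs. By gene TPM all 3 differed little between the libraries. Pes1 was at 47.8 TPM in replicate 1 versus 50.4 TPM in replicate 2, Bop1 at 30.9 TPM in replicate 1 against 32.7 TPM in replicate 2, and Wdr12 at 37.7 TPM in replicate 1 against 36.4 TPM in replicate 2. By gene TPM the ratio of Pes1 to Bop1 was 1.55 in replicate 1 and 1.54 in replicate 2. That of Wdr12 to Bop1 was 1.22 in replicate 1 and 1.11 in replicate 2. By CPM the ratios were 1.40 and 1.23 for Pes1, and 1.72 and 1.75 for Wdr12, in replicates 1 and 2. Coding transcripts of Pes1 were at 33.6 TPM in replicate 1 against 31.5 TPM in replicate 2. By that measure Pes1 was above Bop1 in replicate 1 and below it in replicate 2. Noc2l was at 66.4 TPM in replicate 1 against 75.3 TPM in replicate 2, and Noc3l, a partner of Noc2l in yeast, was far lower at 14.3 TPM in replicate 1 against 11.5 TPM in replicate 2. The methyltransferase Nop2 was at 36.9 TPM in replicate 1 against 50.9 TPM in replicate 2, the nucleolar assembly factor Nop16 at 23.9 TPM in replicate 1 against 35.6 TPM in replicate 2, and Rrp1b at 26.6 TPM in replicate 1 against 29.9 TPM in replicate 2. Eif6 keeps the new large subunit from joining the small one until Sbds, the protein mutated in Shwachman-Diamond syndrome in people, helps remove it. Eif6 was at 116 TPM in replicate 1 versus 110 TPM in replicate 2, and Sbds at 22.3 TPM in replicate 1 against 30.8 TPM in replicate 2, so Eif6 stood at 5.18 times Sbds in replicate 1 and 3.56 times in replicate 2. The excess was smaller by CPM, at 2.13 times in replicate 1 and 1.89 times in replicate 2, and by coding TPM, at 1.41 times in replicate 1 and 1.36 times in replicate 2.

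No member was apart by 2-fold or more between the libraries. The difference was taken as log2(TPM + 1) of replicate 1 minus replicate 2, which understates the change of low genes. It ran from -0.85 (Wdr3) to 0.35 (Nop58), with a median of -0.16 over the 42 members and -0.18 over the 11438 genes with a mean of at least 1 TPM. Of those genes, 6.92% were at least 2-fold lower in replicate 1 and 4.35% at least 2-fold higher, where 0 members were either. Of the 6156 genes at a mean of 10 TPM or more, the level of all members, 3.46% were at least 2-fold lower in replicate 1 and 1.72% at least 2-fold higher. Replicate 1 was the lower library for 27 members, or 64.3%, near the 66.1% over all genes tested, and the higher for 15. The median difference of the members thus lay within 0.02 of that of all genes. Their SD was 0.34, against 0.47 over 5759 protein-coding nuclear genes at 10 TPM or more, but the middle of the range was not narrower: the interquartile range was 0.52 for the members and 0.45 for those genes. Across the 42 genes the levels in the libraries correlated at a Spearman rho of 0.950, given as a description, since genes of a library share its depth and composition.

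**Figure D2:**
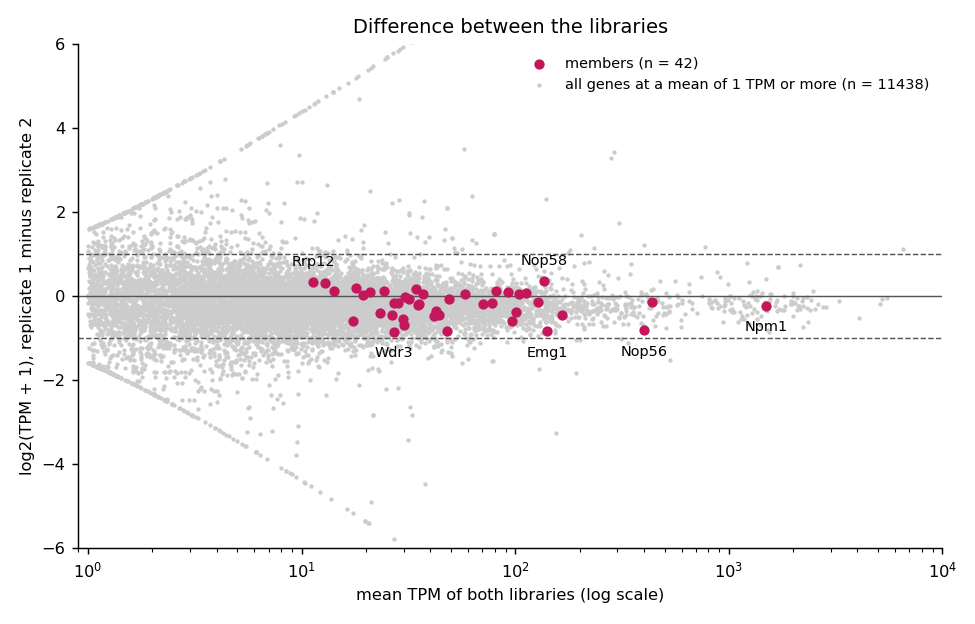
Difference between the libraries, as log2(TPM + 1) of replicate 1 minus replicate 2, against mean TPM on a log axis, for the 42 members over 11438 genes in grey, with dashed lines at 2-fold. All members lie between the dashed lines, from -0.85 for Wdr3 to 0.35 for Nop58, and 26 grey points lie outside the axes.

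The sign of many small differences depended on the scale. TPM divides a count by the effective length of the gene, the mean length of its transcripts weighted by how the reads were assigned to them. On CPM with trimmed-mean (TMM) factors and no length correction, the median difference over the members was 0.03 and over all genes tested -0.01, and 17 members were lower and 25 higher in replicate 1. On both scales 16 members were lower in replicate 1 and 14 higher. Wdr3 shows the part of length. It had 1223 expected counts in replicate 1 and 2333 in replicate 2, or 43.7 CPM in replicate 1 against 42.2 CPM in replicate 2, but its effective length was 2941 bases in replicate 1 and 1724 bases in replicate 2. Its difference was -0.85 on the TPM scale and 0.05 on the CPM scale. Polr1b turned in the other direction, at 0.18 on the TPM scale and -0.08 on the CPM scale, with effective lengths of 2532 bases in replicate 1 and 3406 bases in replicate 2. In all, 4 members had effective lengths over 1.2-fold apart: Wdr3 and Nob1 were longer and Polr1b and Nop58 shorter in replicate 1.

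Some differences were present on both scales. Polr1c was at 30.0 CPM in replicate 1 and 45.7 CPM in replicate 2, a difference of -0.59 on the CPM scale and -0.83 on the TPM scale. Nop56 was at 242 CPM in replicate 1 against 349 CPM in replicate 2, a difference of -0.53 on the CPM scale. Emg1 was at 67.7 CPM in replicate 1 and 94.7 CPM in replicate 2, a difference of -0.48 on that scale. In the other direction Rrp12 was at 41.8 CPM in replicate 1 against 28.8 CPM in replicate 2, a difference of 0.52, and Noc3l at 43.2 CPM in replicate 1 against 30.5 CPM in replicate 2, a difference of 0.49. Length and difference were related among the members. Over the 42 members the CPM difference and the effective length had a Spearman rho of 0.47, and over the 5759 protein-coding nuclear genes at 10 TPM or more a rho of 0.21. Of 7 members with effective lengths over 4000 bases, 5 were higher in replicate 1 by TPM. Of 788 such protein-coding genes, 311 were.

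**Figure D3:**
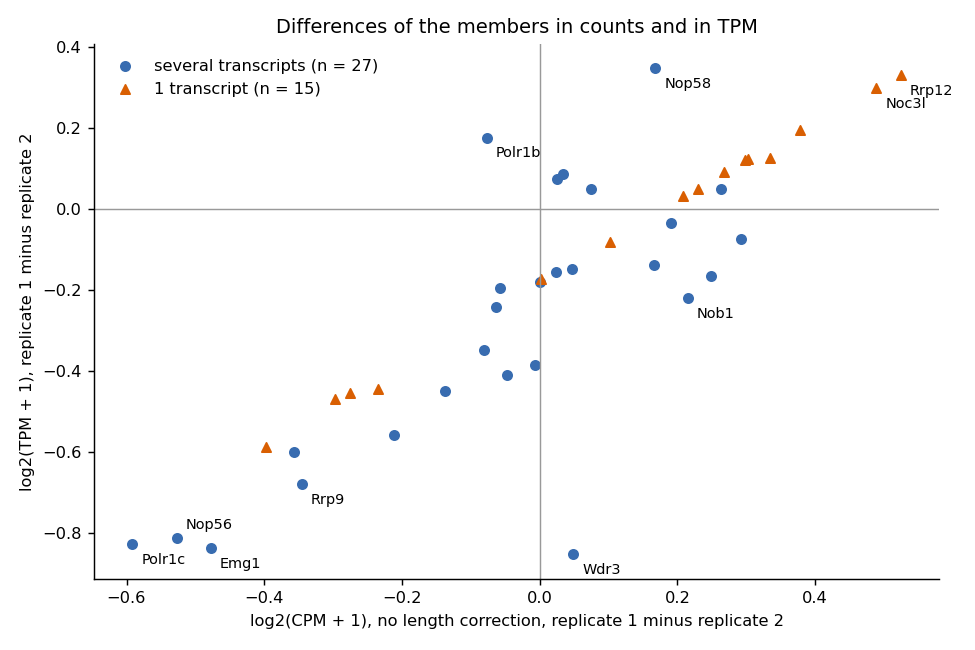
Difference between the libraries for each of the 42 members without length correction (log2(CPM + 1), horizontal axis) and with it (log2(TPM + 1), vertical axis), both replicate 1 minus replicate 2, with triangles for the 15 members with 1 transcript and circles for the 27 with several. The triangles fall on a line, while Wdr3 (0.05 by CPM, -0.85 by TPM) and Polr1b (-0.08 and 0.18) lie off it.

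The scatter off that line came with members that have several transcripts in the authors' annotation. For the 15 members with 1 transcript, log2 effective lengths differed by 0.01 to 0.05 between the libraries, and the SD of the difference was 0.30 on both scales. For the 27 with several, they differed by -0.43 to 0.77, and the SD was 0.33 on the TPM scale and 0.24 on the CPM scale. The split of reads among transcripts that share exons is the authors' estimate, and it enters each gene's TPM.

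Transcripts annotated as non-coding took a large share of the TPM of some members, as often as among other genes. A short transcript weighs more in TPM than in expected counts. GENCODE marks as "retained intron" a transcript that keeps an intron, and as "nonsense-mediated decay" one whose stop codon marks it for decay. The median member had 96.3% of its TPM in protein-coding transcripts in replicate 1 and 91.6% in replicate 2. Protein-coding nuclear genes at 10 TPM or more had 91.4% in replicate 1 and 91.8% in replicate 2. These medians partly follow the annotation: 27 of the 42 members had several transcripts, as did 4503 of those 5759 genes. Each of the 15 members with 1 transcript in the authors' annotation was 100% coding in both libraries. By GENCODE M21, Gnl3 among them also has a retained-intron transcript, which was not quantified. In 8 members, or 19.0%, less than 50% was coding in at least 1 library, near the 20.4% of those 5759 genes. Gar1 was lowest, at 12.6% in replicate 1 and 6.68% in replicate 2, and Gar1-205, a retained-intron transcript of 418 bases, held 87.4% in replicate 1 and 93.2% in replicate 2. In Ncl 15.1% was coding in replicate 1 and 12.1% in replicate 2, and the retained-intron transcript Ncl-202 of 3072 bases held 67.0% in replicate 1 and 63.7% in replicate 2. Rrp1b had 26.8% of its TPM in its coding transcript in replicate 1 and 21.1% in replicate 2. Nop56 had 48.5% in coding transcripts in replicate 1 and 44.0% in replicate 2, spread over many of its 19 annotated transcripts, of which the coding Nop56-201 held most, 22.9% in replicate 1 and 21.7% in replicate 2.

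The other members under that level were less steady. Nob1 had 49.8% coding in replicate 1 and 28.8% in replicate 2, and its main transcript was the coding Nob1-201 in replicate 1 and the decay-marked Nob1-207 in replicate 2. Eif6 had 25.9% coding in replicate 1 and 34.1% in replicate 2, and its main transcript was the processed Eif6-205 of 402 bases in replicate 1 and the decay-marked Eif6-207 in replicate 2. Rrp9 was 65.3% coding in replicate 1 and 38.7% in replicate 2, and Wdr3 74.5% in replicate 1 and 42.6% in replicate 2. By expected counts the coding part was larger: in replicate 2, Wdr3-201 held 1881 of 2333 and Rrp9-201 790 of 1370. Eif6-201, also coding, held 837 of 1439 in replicate 1 and 1840 of 2792 in replicate 2. Retained-intron transcripts still led by counts in Gar1 and Ncl. Gar1-205 held 473 of 690 in replicate 1 and 1042 of 1370 in replicate 2. Ncl-202 held 17915 of 28610 in replicate 1 and 32642 of 50335 in replicate 2. In Wdr3 the short retained-intron transcript Wdr3-204 of 398 bases was at 0 TPM in replicate 1 against 12.3 TPM in replicate 2. The main transcript also differed for Npm1, Npm1-202 in replicate 1 and Npm1-204 in replicate 2, and for Ubtf, Ubtf-210 in replicate 1 and Ubtf-213 in replicate 2, in both cases among coding transcripts. Of the 27 members with several transcripts, 23 had the same main transcript in both libraries, or 85.2%, against 75.1% of 4503 protein-coding nuclear genes at 10 TPM or more.

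**Figure D4:**
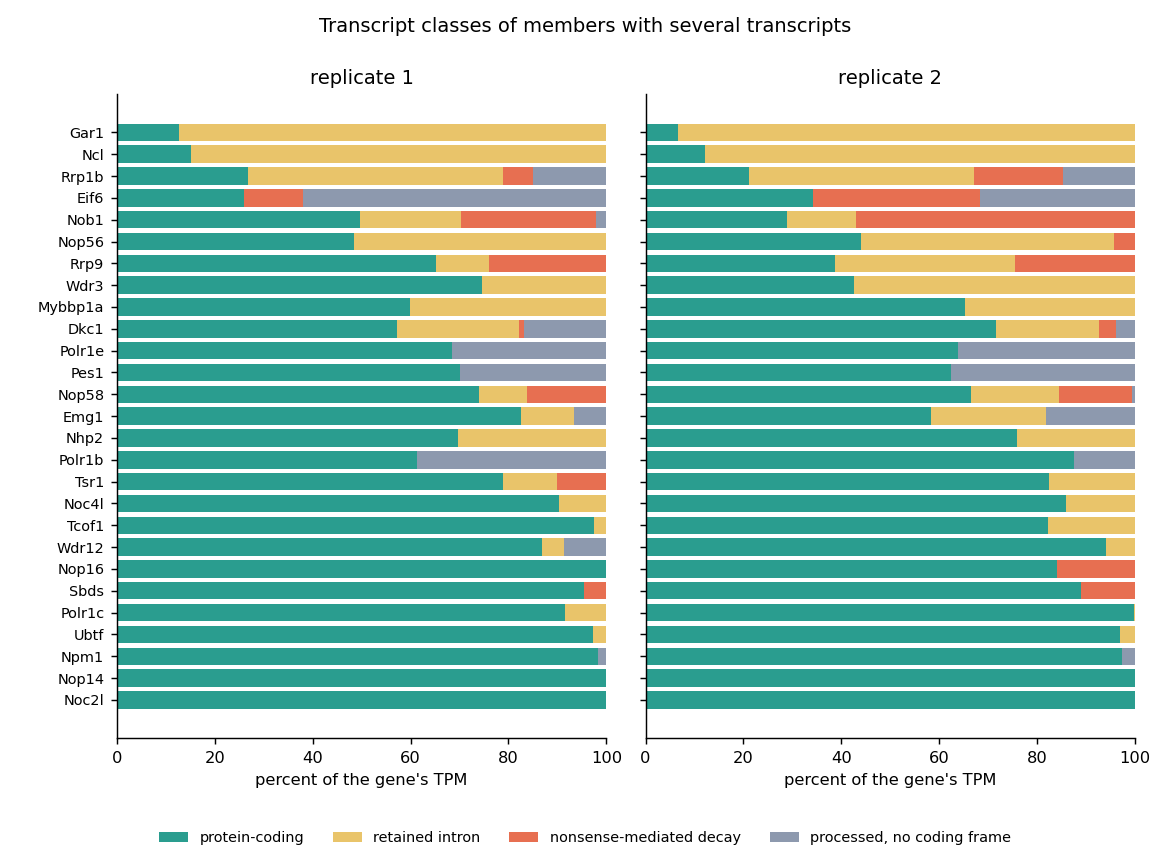
Share of each gene's TPM in 4 classes of transcript, in replicate 1 (left) and replicate 2 (right), for the 27 members with several transcripts, ordered by the coding share. Retained-intron transcripts fill most of Gar1 and Ncl in both libraries, and the coding share of Wdr3, Rrp9 and Nob1 is larger in replicate 1.

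Counting coding transcripts alone changed the order of the members. The difference between the libraries became smaller in size for 11 members and larger for 14, and was the same for 17. It changed sign for 12 members. Ncl, second by gene TPM, had 62.7 TPM in coding transcripts in replicate 1 and 55.3 TPM in replicate 2, place 12 of 42 in replicate 1 and place 15 in replicate 2. Npm1 stayed first at 1343 TPM in replicate 1 against 1574 TPM in replicate 2, followed in both libraries by Nop56, at 141 TPM in replicate 1 versus 225 TPM in replicate 2, and by Fbl. The coding level of Wdr3 was 14.1 TPM in replicate 1 against 14.9 TPM in replicate 2, and that of Rrp9 14.9 TPM in replicate 1 against 14.4 TPM in replicate 2. The gap was wider than by gene TPM for Nob1, Nop58 and Polr1c, and for Nob1 it also changed direction. Nob1 was at 16.0 TPM in replicate 1 against 10.8 TPM in replicate 2 and Nop58 at 113 TPM in replicate 1 against 79.8 TPM in replicate 2. Polr1c was at 31.3 TPM in replicate 1 against 61.5 TPM in replicate 2. Rrp1b was lowest at 7.12 TPM in replicate 1 against 6.30 TPM in replicate 2. By this measure the median member was at 30.4 TPM in replicate 1 versus 32.1 TPM in replicate 2, and 38 of 42 members had 10 TPM in both libraries.

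Several members carry snoRNA genes within their own bounds, so that the genes of the modification machinery also hold guide RNAs. By GENCODE, 21 snoRNA genes of 68 to 133 bases lie inside 7 members on the same strand: 5 in Nop56, 4 in Nop58, 3 each in Ncl, Gnl3 and Wdr43, 2 in Tsr1 and 1 in Dkc1. Of these, 1 overlapped an exon of a coding transcript of its host in GENCODE M21 and 10 an exon of a retained-intron transcript. The 10 include those in Gnl3, for which the authors' annotation gave no retained-intron transcript. In 9 the sequence held a C box, searched as ATGATGA or GTGATGA within the first 20 bases, and a D box, CTGA, within the last 20, on the strand of the gene. The sequences below are the DNA-sense letters of GENCODE M21 transcripts on GRCm38. Shown first is 1 C/D snoRNA from each of Nop56 (Snord110, chr2:130275506-130275573, plus strand), Nop58 (Snord11, chr1:59704790-59704873, plus strand) and Ncl (Snord82, chr1:86356261-86356330, minus strand), with the boxes in capitals. Then come the longest of the 21, in Ncl (Snora75, chr1:86351169-86351301, minus strand) and Nop56 (Gm24451, chr2:130276237-130276369, plus strand), which had counts, with an ACA near the end, the mark of the other class, in capitals.
Snord110: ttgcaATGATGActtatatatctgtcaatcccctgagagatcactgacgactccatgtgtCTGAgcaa
Snord11: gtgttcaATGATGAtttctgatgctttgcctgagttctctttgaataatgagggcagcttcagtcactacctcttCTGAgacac
Snord82: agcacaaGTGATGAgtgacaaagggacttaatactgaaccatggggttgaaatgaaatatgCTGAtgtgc
Snora75: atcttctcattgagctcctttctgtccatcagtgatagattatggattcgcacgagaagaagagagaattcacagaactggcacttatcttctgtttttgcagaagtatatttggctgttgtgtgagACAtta
Gm24451: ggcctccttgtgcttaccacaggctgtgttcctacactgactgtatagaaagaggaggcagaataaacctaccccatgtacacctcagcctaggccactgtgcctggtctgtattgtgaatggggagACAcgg

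The libraries say little on these snoRNAs. RNA under 200 bases was outside the stated size range, and 16 of the 21 had an effective length of 0 in both libraries, so no read could be assigned to them. In all, 18 had 0 counts in both libraries. Snora75 had 15.4 expected counts in replicate 1 and 34.3 in replicate 2, and Gm24451 had 24 in replicate 1 and 23 in replicate 2. Both lie under exons of retained-intron transcripts of their hosts, so reads of snoRNA and host cannot be told apart there. The snoRNAs add next to nothing to the host counts, which for Ncl were 28610 in replicate 1 and 50335 in replicate 2, and for Nop56 6767 in replicate 1 and 19288 in replicate 2. Beside the hosted snoRNAs, 14 members overlap a gene with counts on the opposite strand, and whether the counting used strand is not given in the sources used here. Examples are Emg1 with Lpcat3 over 334 bases and Rrp9 with Parp3 over 987 bases.

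The promoters of the members were compared with those of other genes. RefSeq promoter windows on GRCm38.p6, from 250 bases before to 50 after the start site, matched 35 of the 42 members by symbol. Bop1, Eif6, Fbl, Npm1, Rrp12, Sbds and Tcof1 did not match. Each window was searched on both strands for 6 short motifs. The E-box CACGTG, which MYC and related factors bind, was in 7 of 35 member promoters, or 20%, against 8.09% of 27025 genes in the table and 13.4% of 4678 protein-coding genes at 10 TPM or more. The motif CCGGAAG, bound by ETS factors, was in 14, or 40%, against 9.93% of all genes and 26.5% of genes at 10 TPM or more. GGGCGG was in 74.3% of member promoters, against 38.2% of all genes and 71.2% of genes at 10 TPM or more. CCAAT was in 28.6%, against 41.1% of all genes and 43.1% of genes at 10 TPM or more, and TATAAA in 5.71%, against 15.7% and 7.61% of the same sets. AGATAA, which GATA factors bind, was in 0 of 35, against 12.7% of all genes and 7.25% of genes at 10 TPM or more. A match is a description of the letters and no sign of binding, and no binding was measured here.

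Members with the E-box lay near the rest in level: the median of the mean TPM was 41.4 with CACGTG and 39.9 without. The 7 were Rrn3, Mybbp1a, Utp20, Wdr43, Tsr1, Pes1 and Nop2, which come from each role group except the snoRNP proteins. CACGTG and CCGGAAG were both in 3 promoters, and no match of one overlapped a match of the other, while overlaps among the other motifs were not searched for. They are shown because they hold both motifs, in capitals, with CCGGAAG on the other strand as CTTCCGG: Rrn3 (chr16:13780449-13780748, plus strand), Tsr1 (chr11:74897830-74898129, plus strand) and Nop2 (chr6:125131633-125131932, plus strand).
Rrn3: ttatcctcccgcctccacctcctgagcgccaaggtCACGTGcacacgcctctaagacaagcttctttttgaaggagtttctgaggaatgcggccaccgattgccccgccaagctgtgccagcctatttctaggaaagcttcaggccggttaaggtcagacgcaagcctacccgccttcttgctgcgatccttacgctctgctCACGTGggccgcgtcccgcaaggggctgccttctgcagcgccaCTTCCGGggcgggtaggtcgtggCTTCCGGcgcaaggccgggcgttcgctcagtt
Tsr1: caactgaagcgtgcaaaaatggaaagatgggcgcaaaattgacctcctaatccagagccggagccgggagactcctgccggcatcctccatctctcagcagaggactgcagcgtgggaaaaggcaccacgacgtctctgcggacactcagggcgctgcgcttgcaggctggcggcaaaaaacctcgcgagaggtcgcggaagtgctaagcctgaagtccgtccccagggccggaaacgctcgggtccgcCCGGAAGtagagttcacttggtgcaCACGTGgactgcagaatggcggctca
Nop2: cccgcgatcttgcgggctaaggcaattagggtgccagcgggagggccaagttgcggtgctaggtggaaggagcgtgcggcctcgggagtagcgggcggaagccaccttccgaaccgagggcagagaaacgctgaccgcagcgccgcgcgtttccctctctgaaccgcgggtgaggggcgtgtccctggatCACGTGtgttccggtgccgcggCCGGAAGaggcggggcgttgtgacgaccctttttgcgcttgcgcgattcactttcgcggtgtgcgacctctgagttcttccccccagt

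Polymerase I genes were set beside the subunits of the other nuclear polymerases. The 6 subunits particular to polymerase I had medians of 19.4 TPM in replicate 1 against 20.2 TPM in replicate 2. The 7 listed subunits particular to polymerase II, which makes messenger RNA, had 44.05 TPM in replicate 1 against 49.95 TPM in replicate 2, and the 9 listed for polymerase III, which makes transfer RNA, had 13.1 TPM in replicate 1 against 14.9 TPM in replicate 2. The catalytic subunits kept that order in both libraries. Polr2a was at 44.1 TPM in replicate 1 versus 49.95 TPM in replicate 2, or 2.24 times Polr1a in replicate 1 and 2.60 times in replicate 2. Polr1a was in turn 2.09 times Polr3a in replicate 1 and 1.82 times in replicate 2, and Polr3a was at 9.40 TPM in replicate 1 against 10.6 TPM in replicate 2. Polr2b was at 43.5 TPM in replicate 1 against 51.8 TPM in replicate 2, and Polr3b at 13.6 TPM in replicate 1 against 11.6 TPM in replicate 2. Of the other polymerase I subunits, Twistnb was at 19.1 TPM in replicate 1 against 18.7 TPM in replicate 2, Znrd1 at 19.7 TPM in replicate 1 against 44.3 TPM in replicate 2, and Cd3eap at 5.49 TPM in replicate 1 against 17.8 TPM in replicate 2.

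Most shared subunits were higher. Polr1d, the partner of Polr1c in polymerases I and III, was at 63.1 TPM in replicate 1 versus 97.8 TPM in replicate 2, and Polr1d stood at 1.84 times Polr1c in replicate 1 and 1.59 times in replicate 2. Among those in all 3 polymerases, Polr2f was highest at 85.5 TPM in replicate 1 against 146 TPM in replicate 2, followed by Polr2e at 60.0 TPM in replicate 1 against 73.9 TPM in replicate 2 and Polr2k at 37.6 TPM in replicate 1 against 59.5 TPM in replicate 2. Polr2h was at 30.3 TPM in replicate 1 against 30.1 TPM in replicate 2, and Polr2l at 16.2 TPM in replicate 1 against 22.8 TPM in replicate 2. Except for Polr2h, these shared subunits were lower in replicate 1. The small polymerase II subunits ran from Polr2c, at 21.2 TPM in replicate 1 versus 36.9 TPM in replicate 2, and Polr2d, at 25.5 TPM in replicate 1 against 31.5 TPM in replicate 2, to Polr2j at 94.2 TPM in replicate 1 against 117 TPM in replicate 2. Between them were Polr2i at 44.05 TPM in replicate 1 against 42.96 TPM in replicate 2 and Polr2g at 51.3 TPM in replicate 1 against 58.1 TPM in replicate 2. In each library the listed polymerase III subunits were all below those particular to polymerase II. Polr3c was at 17.3 TPM in replicate 1 against 17.5 TPM in replicate 2, Polr3d at 13.6 TPM in replicate 1 against 24.6 TPM in replicate 2, Polr3e at 10.2 TPM in replicate 1 against 14.9 TPM in replicate 2, Polr3f at 10.3 TPM in replicate 1 against 8.65 TPM in replicate 2, and Polr3k at 13.1 TPM in replicate 1 against 14.9 TPM in replicate 2. Polr3g and Polr3gl are alternative subunits. Polr3g was at 15.8 TPM in replicate 1 against 13.5 TPM in replicate 2. Polr3gl was at 7.62 TPM in replicate 1 against 17.9 TPM in replicate 2. Which of Polr3g and Polr3gl was higher by TPM thus differed between the libraries. By expected counts, with no length correction, Polr3g was higher in both. The counts were 456 against 155 in replicate 1 and 1129 against 665 in replicate 2.

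**Figure D5:**
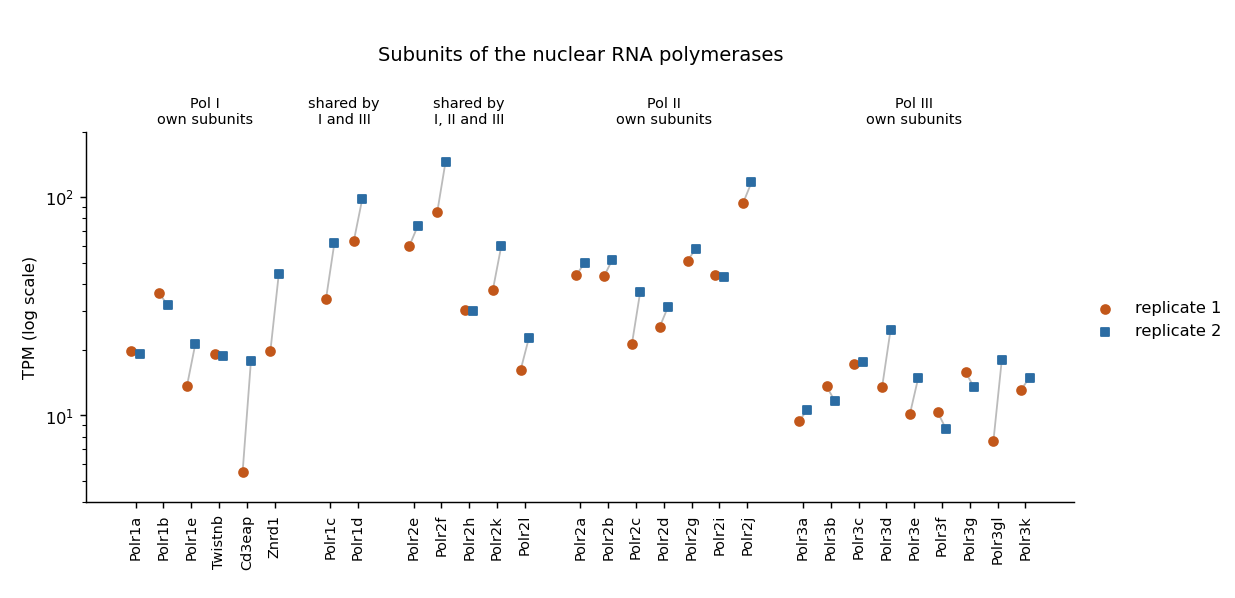
Level of each listed subunit of the nuclear RNA polymerases in TPM on a log axis, grouped by the polymerase it belongs to, with a circle for replicate 1 left of a square for replicate 2. Subunits particular to polymerase II lie between 21.2 and 117 TPM, and those particular to polymerase III between 7.62 and 24.6 TPM. Those particular to polymerase I lie between 5.49 TPM, for Cd3eap in replicate 1, and 44.3 TPM, for Znrd1 in replicate 2. Shared subunits lie between 16.2 TPM, for Polr2l in replicate 1, and 146 TPM, for Polr2f in replicate 2.

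The rest of the pathway was expressed too. Of 97 further ribosome biogenesis genes listed, 96 were measured and 1 was not analysed here. Their median was 24.6 TPM in replicate 1 versus 29.5 TPM in replicate 2, below the members in both libraries. None of the 96 was under 1 TPM in either library, and 86 reached 10 TPM in both. The highest were Snu13, a protein that binds C/D guide RNAs, at 162 TPM in replicate 1 against 169 TPM in replicate 2, and in the large subunit route Rsl1d1 at 93.9 TPM in replicate 1 against 144 TPM in replicate 2, Mrto4 at 83.0 TPM in replicate 1 against 129 TPM in replicate 2, and Ppan at 66.1 TPM in replicate 1 against 102 TPM in replicate 2. In the small subunit route the nuclease-like Fcf1 was at 97.4 TPM in replicate 1 against 111 TPM in replicate 2, Wdr75 at 81.7 TPM in replicate 1 against 86.9 TPM in replicate 2, and Imp3 at 61.5 TPM in replicate 1 against 55.5 TPM in replicate 2. The snoRNP assembly factor Pih1d1 was at 60.8 TPM in replicate 1 against 63.9 TPM in replicate 2, and Ruvbl2 at 61.4 TPM in replicate 1 against 63.2 TPM in replicate 2. Taf1d, of the polymerase I initiation complex, was at 52.2 TPM in replicate 1 versus 80.9 TPM in replicate 2.

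Of the 96, 3 were over 2-fold apart, or 3.13%, against the 6.92% and 3.46% of genes at a mean of 1 and 10 TPM that were at least 2-fold lower in replicate 1. All 3 were lower in replicate 1: Cd3eap, at -1.53 on the log2(TPM + 1) scale, Tsr2, at -1.41, and Znrd1, at -1.13. Tsr2, which escorts a small subunit protein and is mutated in some patients with Diamond-Blackfan anemia, was at 9.20 TPM in replicate 1 against 26.1 TPM in replicate 2. Without length correction Tsr2 differed by -0.89 and Znrd1 by -0.85, both within 2-fold, and Cd3eap by -1.34. Cd3eap overlaps Ercc1 on the opposite strand over 511 bases and Tsr2 overlaps Fgd1 over 2428 bases. Reads of these pairs could not be told apart if the counting ignored strand. Ercc1 had 95 expected counts in replicate 1 and 451 in replicate 2, against 153 and 850 for Cd3eap. Fgd1 had 22 in replicate 1 and 66 in replicate 2, against 365 and 1381 for Tsr2. The part of the overlaps in these differences was not tested. Over the 96 genes, 72 were lower in replicate 1 and 24 higher, and the median difference was -0.18, the same as over all genes tested.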

How the data were processed

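Per the labels, 2 libraries of 100 MEP cells were sequenced as total RNA with spike-ins. The tables were made by the authors on mm10 with GENCODE M4, per their README. No source used here gives the aligner or quantifier. The authors deposited expected counts, which are estimated reads per gene or transcript. Their deposited TPM corrects these for effective length and sums over all features. Deposited FPKM values were not used, and the bounds of credibility intervals, deposited as signal columns, set no result. The deposited percent columns give each transcript's part of its gene, which was recomputed from transcript TPM. A deposited score column holds the posterior standard deviation of each count. GENCODE M21 (GRCm38) gave names, types and coordinates by identifier without version.

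The members and gene lists were chosen with earlier results of these data known. All 42 members are named. Of the further pathway genes, the rule names the 3 highest by mean TPM in each role group, those under 1 TPM, those 2-fold apart at a mean of at least 10 TPM, and every listed polymerase subunit. Transcripts are named where under 50% of a gene's TPM is coding or the main transcript differs. Differences used a pseudocount of 1 and genes with a mean of at least 1 TPM. Library totals were 30016974 and 51510347 counts in replicates 1 and 2. Expected counts were rounded for edgeR 4.0.16 (TMM factors) and, as an alternative, DESeq2 1.42.0 (size factors), under R 4.3.3. Python 3.11.15 with pandas 2.3.3, scipy 1.17.1 and matplotlib 3.10.9 did the rest. The calculation of differences was tested on simulated data with known changes. Alternatives were other minimums, pseudocounts and scalings, posterior means and each library alone. A minimum of 10 TPM for genes called apart was added after the data were seen.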

Additional observations from a re-analysis of the deposited data

Results flagged for a closer look

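Counts appeared on 2 snoRNA genes inside members, outside the main measurement and above the 3 counts that an observation of 0 allows. Gm24451 inside Nop56 had 24 expected counts in replicate 1 and 23 in replicate 2. Snora75 inside Ncl had 15.38 expected counts in replicate 1 and 34.26 in replicate 2. Their effective lengths were 17.99 bases in replicate 1 and 11.35 bases in replicate 2, and these few counts stand as 60.7 TPM in replicate 1 against 52.5 TPM in replicate 2 for Gm24451, and as 38.9 TPM in replicate 1 against 78.1 TPM in replicate 2 for Snora75. With 1 group and no control sample, the libraries were not tested against each other for them. The part of reads from the host transcripts was not tested.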

How the results depend on the processing

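Of 49 recalculations of 10 results, 28 kept the value within the spread between the libraries or, for counts of genes, within 1.5 times. The count of members 2-fold apart was 0 under each alternative tried, while 15.6% of the genes tested were apart with a pseudocount of 0.1, 6.29% by CPM and 13.1% with DESeq2 size factors. The median difference of the members changed sign, to 0.017 with TPM rescaled over protein-coding nuclear genes, 0.030 by CPM with TMM factors and 0.030 with DESeq2 size factors. The median of all genes moved with it, to -0.01 under each of the 3, a difference of at most 0.04 between members and all genes. With a minimum of 50 TPM, 16 members passed in both libraries. TPM rescaled in the same way put the medians at 91.5 TPM for all members, 384 TPM for box C/D snoRNP, 226 TPM for box H/ACA snoRNP, 63.0 TPM for polymerase I, 222 TPM for nucleolar chaperones and regulators, 66.4 TPM for small subunit processing and 80.6 TPM for large subunit processing. CPM, which gives long genes more, put them at 74.6 CPM for all members, 127 CPM for box C/D snoRNP, 68.2 CPM for box H/ACA snoRNP, 60.3 CPM for polymerase I, 230 CPM for nucleolar chaperones and regulators, 61.2 CPM for small subunit processing and 52.9 CPM for large subunit processing, so the order of the role groups depends on length correction. The polymerase I median was 25.99 TPM from posterior means. With each library alone, the median of the chaperones ran from 76.5 to 102 TPM and that of large subunit processing from 33.9 to 36.0 TPM. Read depth limits no level of a member here, though the number of RNA molecules behind the reads was not examined. With 2 libraries, every statement on spread is limited.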
